A study of Mus musculus with 12 samples.

Results

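The cells compared here were mouse haematopoietic stem cells (HSCs), the blood-forming cells of the bone marrow, sorted for c-Kit and Sca-1 after lineage-marked cells had been gated out, a gate that also holds multipotent progenitors. Of the 12 libraries of the series, the 8 from animals of 2 months entered the comparison: 4 of freshly isolated cells and 4 of cells kept for 24 hours with cytokines outside the body. Each set of 4 held 2 wild-type libraries (WT, replicates 1 and 2) and 2 libraries labelled as knockout for Cd38 (KO, replicates 3 and 4), a gene for an enzyme that consumes NAD. The other 4 libraries were fresh cells of animals of 24 months, 2 WT and 2 KO, and serve below only as a second set of fresh cells. They are set against the same 4 stimulated libraries that chose the genes, so they are no independent check. The cytokines are not named in the labels, and neither are the deleted part of Cd38 or the number of animals behind a library, so p-values measure only the spread between these samples. None of the libraries used here was kept for 24 hours without cytokines, so the cytokines, the time outside the body and anything else that set the 2 library sets apart cannot be told apart.

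As background, most HSCs in young marrow are quiescent. Cytokines such as stem cell factor and thrombopoietin act through receptors coupled to JAK, STAT, MAP kinase and PI3 kinase signalling, and they push HSCs to grow, to enter the cell cycle and to start expressing genes of the blood lineages. HSCs kept in culture are also known to lose stem cell function.

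What was counted were reads at the 3′ end of each transcript. Total counts ran from 1600155 to 1963635 in the fresh libraries and from 2692245 to 3249721 in the stimulated ones. With counts thinned to 1600155 a library, 9034 to 9962 genes were detected in fresh cells and 12726 to 12972 in stimulated cells. Replicates were less alike in fresh cells: across genes, not independent points, log2 levels correlated at 0.709 in WT and 0.684 in KO, against 0.959 and 0.955 after stimulation, and edgeR's common dispersion was 0.902 and 1.27 against 0.0316 and 0.0371. Of 10786 genes tested, 215 had 0 counts in all 4 fresh libraries and 1 had 0 counts in all 4 stimulated ones. Fresh WT replicate 1 had 0 CPM of Xist and 212 CPM of Y-linked transcripts, where the other 7 libraries had 322 to 777 CPM and at most 6.98 CPM, so this library differed from the rest in sex-linked transcripts. Levels are in CPM, counts scaled to a common library size with TMM factors, and libraries are listed as WT replicates 1 and 2, then KO replicates 3 and 4. A log2 change is stimulated minus fresh, adjusted for genotype, with its standard error after ±. Levels of the 24-month libraries were scaled over all 12 libraries.

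Transcripts of the sorted markers were present in every library. Kit, the receptor for stem cell factor, stood at 332, 352, 337 and 210 CPM in the fresh libraries and at 198, 221, 274 and 350 CPM in the stimulated ones. The groups overlapped (log2 change -0.26 ± 0.23, adjusted p = 0.613 by edgeR). Ly6a, which encodes Sca-1, had 75.8, 140, 133 and 125 CPM in fresh and 61, 41, 108 and 76.4 CPM in stimulated libraries (log2 change -0.78 ± 0.31, adjusted p = 0.187 by edgeR), again with overlap. Cd34 had 360 to 458 CPM in fresh and 394 to 875 CPM in stimulated libraries (adjusted p = 0.142), and Cd48 had 0.548 to 28.9 and 52.1 to 131 CPM (adjusted p = 0.0961), both by edgeR. Cd38 stood at 18.6, 25.7, 65.8 and 33.4 CPM in the fresh libraries and at 1.04, 8.95, 3.78 and 2.46 CPM in the stimulated ones. All 4 fresh libraries lay above all 4 stimulated ones, KO included, but the difference did not pass (log2 change -3.05 ± 0.92, adjusted p = 0.0845 by edgeR), and the counted 3′ end may not be part of what was deleted, so these counts do not check the genotype.

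Between fresh and stimulated cells 390 of the 10786 genes changed, tested by quasi-likelihood in edgeR with genotype as a covariate, at a Benjamini-Hochberg adjusted p under 0.05: 191 were higher (1.77% of genes tested) and 199 lower (1.84%). A gene counted as changed in both genotypes when it also moved the same way in WT and in KO and both stimulated libraries lay beyond both fresh ones within each. All 191 higher genes met this (1.77%) and 196 of the lower ones (1.82%); Angpt1, Podxl and Prdm16 did not. Each genotype was also contrasted, 2 libraries against 2, in a fit of all 8 libraries that shared 1 estimate of the spread. WT had 40 genes higher (0.371%) and 61 lower (0.566%). KO had 34 higher (0.315%) and 36 lower (0.334%), and 16 and 24 were shared by both genotypes. No gene passed edgeR's test of a difference in response between the genotypes (0%, smallest adjusted p = 0.406), with 1031 genes at an unadjusted p under 0.05, while DESeq2 called 182.

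**Figure D1:**
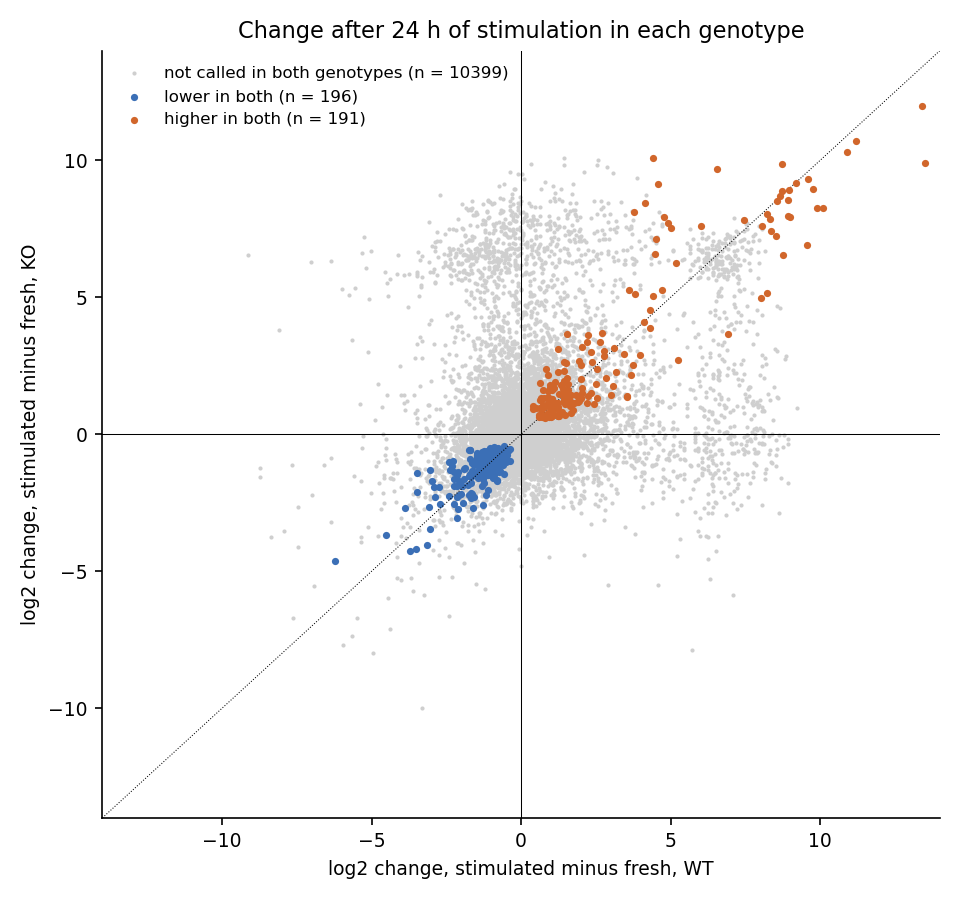
Log2 change after stimulation in WT (horizontal) and KO (vertical), 1 point a gene, with genes called in both genotypes in colour. The 191 higher and 196 lower genes lie in the upper right and lower left corners by the rule that chose them; grey points far along 1 axis only are genes not called in both.

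The number of calls fell most when a stimulated library was left out. The edgeR fit gave each gene 1 dispersion for both sets. The common dispersion was 0.902 and 1.27 in fresh libraries and 0.0316 and 0.0371 in stimulated ones. By limma voom with a weight per treatment, 208 genes were higher and 266 lower. The part of this unequal spread in the calls was not tested. Left out singly, stimulated KO replicate 3 left 40 higher and 62 lower genes, stimulated WT replicate 1 left 74 and 81, stimulated WT replicate 2 left 67 and 85, and stimulated KO replicate 4 left 71 and 88. Without a fresh library the counts were 128 to 239 higher and 134 to 217 lower, and without fresh WT replicate 1, which stood apart in sex-linked transcripts, 186 and 186. Every one of the 191 and the 196 kept its direction in all 15 alternative settings. The rule that chose them left a direction little room to change, so this is no check of them. Of these genes, 36 and 59 were called in each of the settings. Over all genes, 1497 (13.9%) had all 4 stimulated libraries above all 4 fresh ones and 594 (5.51%) had all 4 below, and the median log2 change was 0.19. Among the called genes 190 higher and 190 lower were separated in this way. The higher genes had a median of 59 CPM in fresh and 184 CPM in stimulated cells, the lower ones 315 and 142 CPM.

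**Figure D2:**
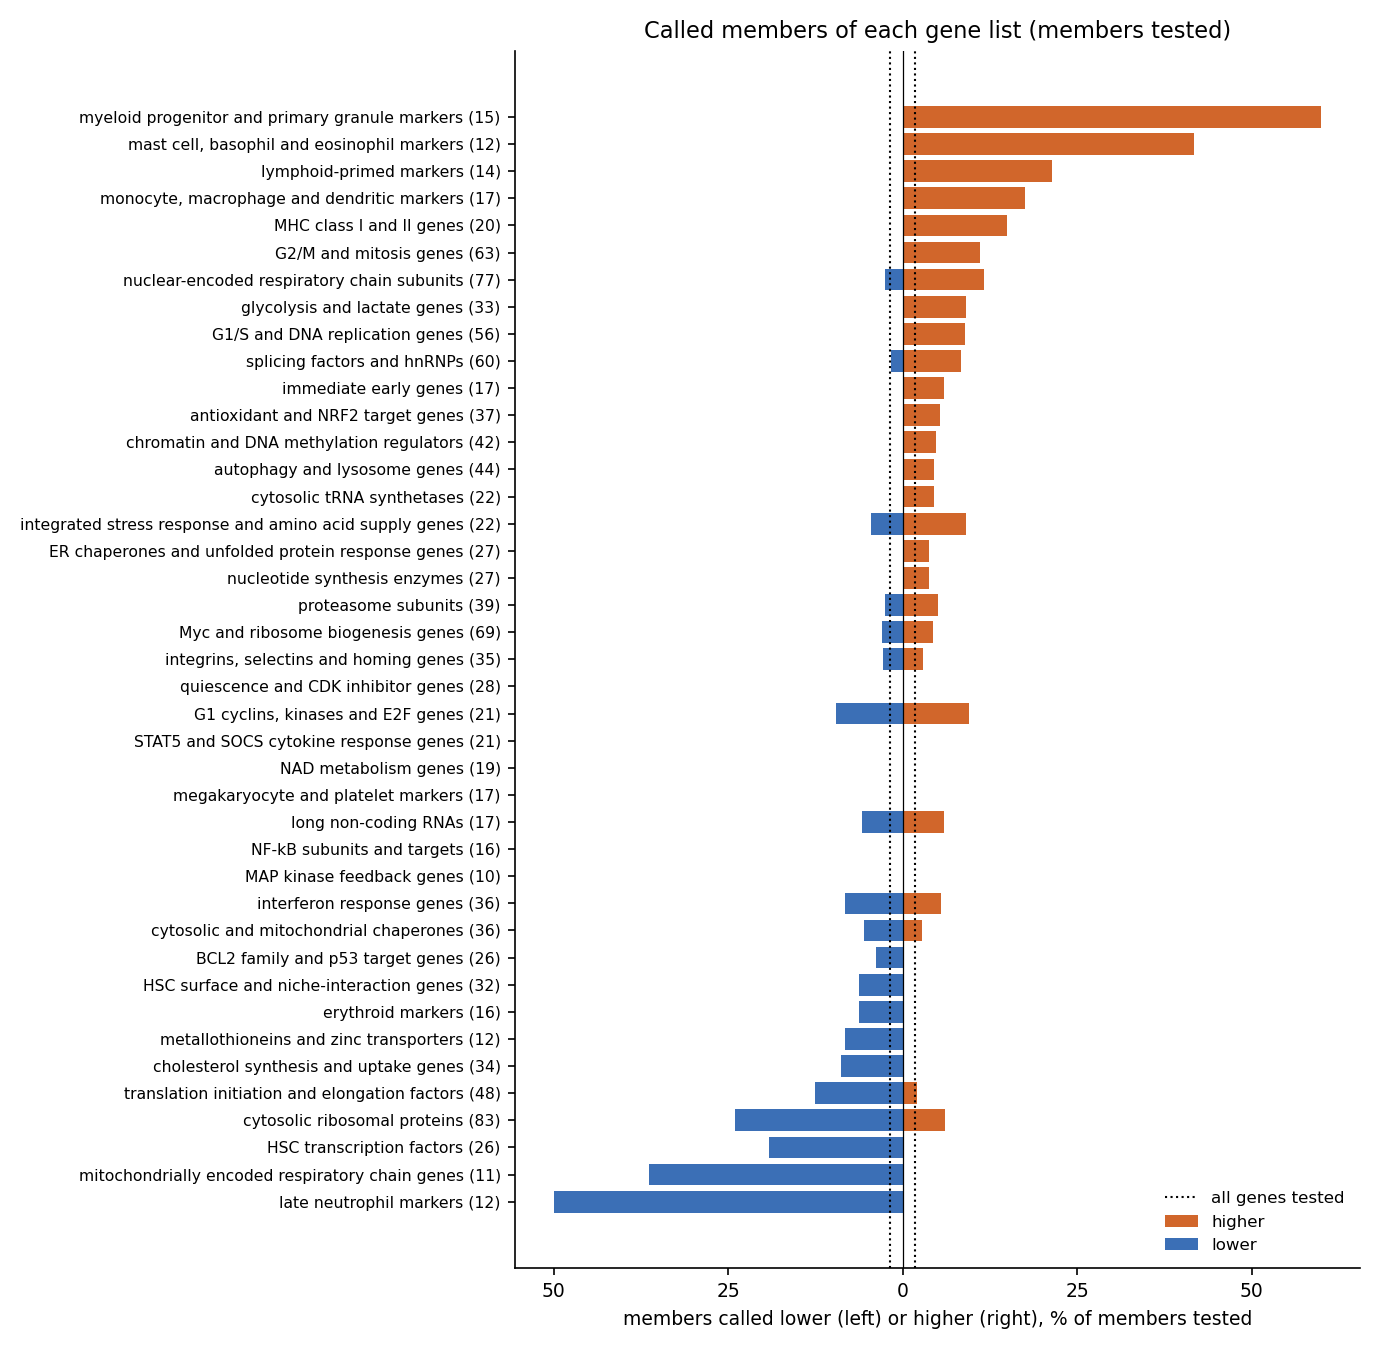
Share of the tested members of each gene list called lower (left) or higher (right) after stimulation, with the number tested in brackets and dotted lines at the share of all genes (1.84% lower, 1.77% higher). Lists with 10 or more tested members are shown; granule, mast cell and eosinophil, and lymphoid-primed markers reach furthest to the right, and late neutrophil markers and mitochondrially encoded genes furthest to the left.

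Transcripts of myeloid primary granules rose together. Of 15 markers of myeloid progenitors and primary granules tested, 9 rose in both genotypes (60%, against 1.77% of all genes) and 0 fell. All 15 log2 changes were positive, with a median of 3.13. Elane, the gene of neutrophil elastase (chromosome 10, 79886312 to 79888216, build mm10), had 37.2, 25.1, 18.2 and 18.1 CPM in fresh and 641, 588, 491 and 346 CPM in stimulated libraries. The groups lay far apart (log2 change 4.41 ± 0.22, adjusted p = 8.66e-06 by edgeR). Mpo, myeloperoxidase (chromosome 11, 87793784 to 87804412), had 63.8, 40.1, 65.8 and 36.7 CPM in fresh and 1130, 904, 927 and 579 CPM in stimulated libraries (log2 change 4.08 ± 0.27, adjusted p = 4.51e-05 by edgeR). For Prtn3, proteinase 3 (chromosome 10, 79879667 to 79883174), the values were 50.5, 64.6, 79.2 and 58.6 CPM and 671, 575, 635 and 411 CPM (log2 change 3.18 ± 0.22, adjusted p = 5.40e-05 by edgeR). In all of these the lowest stimulated library was KO replicate 4, which still lay above every fresh library. Ctsg, cathepsin G (chromosome 14, 56099885 to 56102574), went from 40.6, 11.4, 3.74 and 4.38 CPM to 587, 573, 508 and 277 CPM (log2 change 5.34 ± 0.52, adjusted p = 0.000537 by edgeR), with fresh WT replicate 1 the highest of the fresh libraries. Plac8, a gene of early myeloid and lymphoid progenitors, had 189, 59.2, 178 and 220 CPM in fresh and 1610, 1730, 1410 and 870 CPM in stimulated libraries (log2 change 3.13 ± 0.38, adjusted p = 0.00174 by edgeR), again with no overlap. Cst7, cystatin F, an inhibitor of cathepsins, had 0 counts in every fresh library and 94.5, 101, 78.5 and 50 CPM in the stimulated ones, at least 186-fold higher against a floor of 3 counts over the 4 fresh libraries. Such bounds cover counting error only, and not transcripts lost from a library. Nkg7, a protein of cytotoxic granules (14.4 to 36.4 CPM in fresh, 99.6 to 236 CPM in stimulated libraries), Hp, haptoglobin (22.4 to 42.5 and 102 to 144 CPM), and Clec12a, an inhibitory lectin receptor of myeloid cells (6.57 to 35.9 and 90.1 to 154 CPM), rose as well. Elane, Mpo, Prtn3, Ctsg, Cst7 and Plac8 passed in all 15 alternative settings. Nkg7 did not pass by limma voom and over all 12 libraries (adjusted p up to 0.0808). Hp did not pass without stimulated KO replicate 3 and by limma voom (adjusted p up to 0.053). Clec12a passed in 4 of the 8 fits with 1 library left out, never without stimulated KO replicate 3 (adjusted p up to 0.0961). Clec12a did not pass by limma voom or over all 12 libraries. In the fresh cells of 24-month animals, all 4 libraries lay below all 4 stimulated ones for each of the 9 genes, with Elane at 0 to 27.9 CPM and Mpo at 0 to 85.3 CPM. The same held for 113 of the 191 genes higher in both genotypes and for 1743 of 10786 genes tested. In bulk samples like these, more cells of a type and more RNA per cell cannot be told apart.

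Several late neutrophil transcripts fell. Of 12 markers of maturing neutrophils tested, 6 fell in both genotypes (50%, against 1.82% of all genes) and 0 rose. The median log2 change was -3.29, with 1 of 12 positive. S100a8 (chromosome 3, 90669071 to 90670034), whose product pairs with that of S100a9 to form calprotectin, had 6020, 2890, 2660 and 3380 CPM in fresh and 638, 1030, 722 and 557 CPM in stimulated libraries (log2 change -2.33 ± 0.24, adjusted p = 0.000652 by edgeR). S100a9 had 3140, 1820, 1830 and 2640 CPM and 226, 380, 227 and 180 CPM (log2 change -3.24 ± 0.25, adjusted p = 7.65e-05 by edgeR). Fresh WT replicate 1 was the highest library for both, and no stimulated library reached a fresh one. Camp, the cathelicidin of specific granules, had 491, 441, 461 and 464 CPM in fresh and 35.7, 68.5, 15.1 and 41.5 CPM in stimulated libraries (log2 change -3.59 ± 0.36, adjusted p = 0.000544 by edgeR). Ngp, neutrophilic granule protein, had 388, 268, 219 and 354 CPM and 18, 31.3, 16 and 14.1 CPM (log2 change -3.98 ± 0.30, adjusted p = 7.44e-05 by edgeR). The 4 fresh values of Camp were within 441 to 491 CPM, a narrow range, and those of Ngp spread wider. Chil3, a chitinase-like protein, fell from between 48.4 and 184 CPM to between 1.74 and 16.2 CPM (log2 change -3.86), and Mmp8, neutrophil collagenase, from between 7.67 and 55.1 CPM to between 0.346 and 2.04 CPM (log2 change -5.37). Ngp, Camp, S100a9 and S100a8 passed in all 15 alternative settings. Chil3 passed in 6 of the 8 fits with 1 library left out and Mmp8 in 2, never without stimulated KO replicate 3 (adjusted p up to 0.0912). Chil3 and Mmp8 did not pass over all 12 libraries. These genes belong to mature granulocytes, which the lineage gate removes, and the summed level of the list was 5660 to 10600 CPM in fresh and 920 to 1730 CPM in stimulated libraries. Fresh cells of 24-month animals had 464 to 3250 CPM, overlapping the stimulated range, and for none of the 6 genes did all 4 of those libraries lie above all 4 stimulated ones. They did for 117 of the 196 genes lower in both genotypes and for 992 of 10786 genes tested. The part of carried-over granulocytes or their RNA in the fall of late neutrophil transcripts was not tested.

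**Figure D3:**
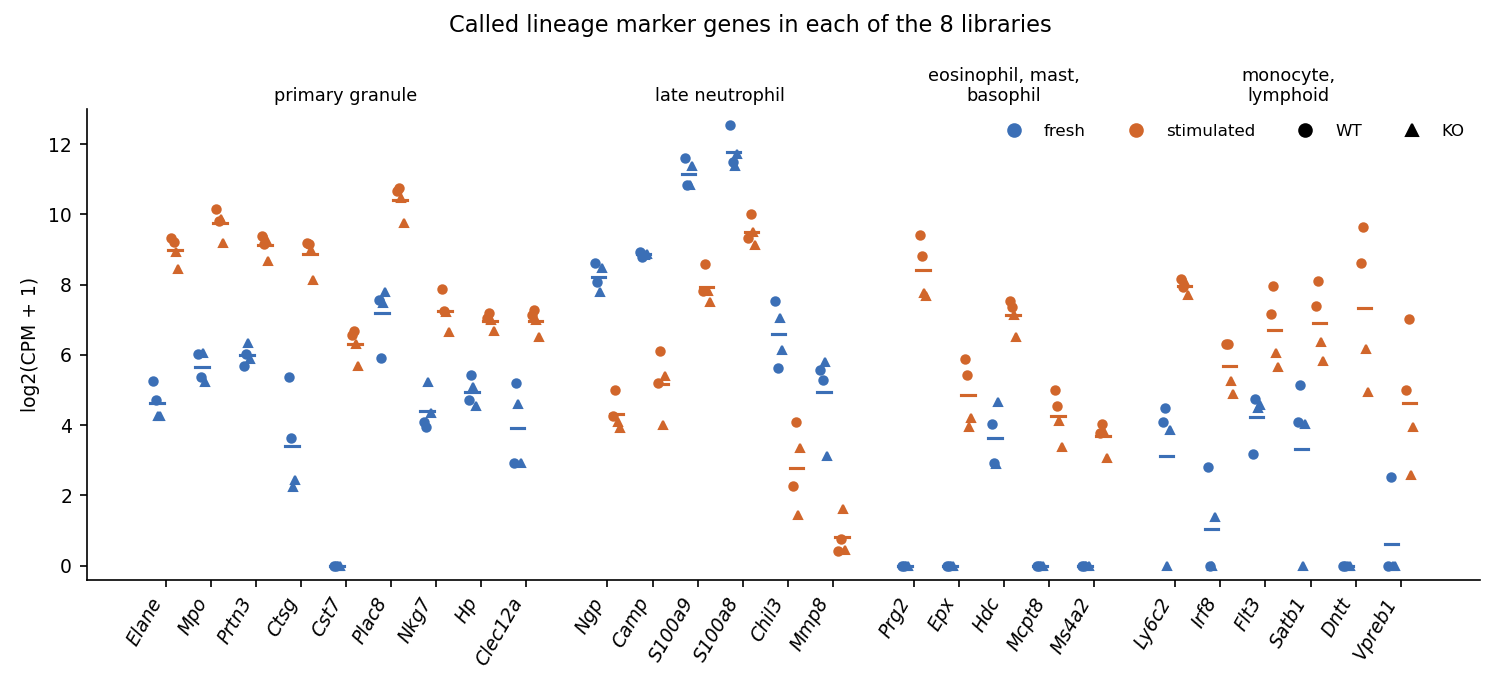
Level of each called lineage marker in the 8 libraries, as log2(CPM + 1), with circles for WT, triangles for KO and a bar at the mean of 4. Primary granule, mast cell, eosinophil, monocyte and lymphoid genes lie higher after stimulation and late neutrophil genes lower; Cst7, Prg2, Epx, Mcpt8, Ms4a2 and Dntt sit at 0 in all 4 fresh libraries.

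Several genes of eosinophils, basophils and mast cells were absent from the fresh counts and present after stimulation. Of 12 tested markers, 5 rose in both genotypes (41.7%, against 1.77% of all genes) and 0 fell. The median log2 change was 3.41 with genes at 0 placed at their bound and 4.95 as fitted. Prg2, the major basic protein of eosinophil granules (chromosome 2, 84980461 to 84983632), had 0 counts in all 4 fresh libraries and 681, 449, 218 and 202 CPM in the stimulated ones, at least 871-fold higher. Epx, eosinophil peroxidase, had 0 counts in the fresh libraries and 57.5, 42.4, 14.5 and 17.6 CPM after stimulation, at least 73.8-fold higher. Both were higher in the 2 stimulated WT libraries than in the 2 KO ones, but with 0 counts in every fresh library of both genotypes the difference in response has no usable test. Hdc, histidine decarboxylase, which makes histamine, had 15.3, 6.58, 6.42 and 24.1 CPM in fresh and 184, 163, 140 and 89.7 CPM in stimulated libraries (log2 change 3.43 ± 0.50, adjusted p = 0.00539 by edgeR), with no overlap. Mcpt8, a protease of basophils, and Ms4a2, a chain of the high-affinity IgE receptor, had 0 counts in fresh cells and 9.5 to 30.8 and 7.39 to 15.5 CPM after stimulation, at least 45 and 28.1-fold higher. Prg2 passed in all 15 alternative settings and Hdc in all but the fit by limma voom (adjusted p = 0.0529). Epx passed in 4 of the 8 fits with 1 library left out, Mcpt8 in 3 and Ms4a2 in 0, never without stimulated KO replicate 3 (adjusted p up to 0.228). Mcpt8 and Ms4a2 did not pass over all 12 libraries. The summed level of the whole list, 1160 to 1940 CPM in fresh and 1390 to 2040 CPM in stimulated libraries, overlapped between the groups, and 10 of its 16 genes had 0 counts in fresh cells. In the fresh libraries of 24-month animals Prg2 was at 0 CPM in 3 and at 60.4 CPM in 1, and Epx was at 0 CPM in all 4.

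A few monocyte and lymphoid priming genes rose as well. Of 17 monocyte, macrophage and dendritic markers tested, 3 rose (17.6%, against 1.77% of all genes) and 0 fell (median 2.18). Of 14 lymphoid-primed markers 3 rose (21.4%) and 0 fell (median 2.80), Flt3 being on both lists. Without stimulated KO replicate 3 each list had 1 call. Ly6c2, a surface antigen of monocytes, had 16, 21.5, 0 and 13.7 CPM in fresh and 284, 243, 271 and 209 CPM in stimulated libraries (log2 change 4.42 ± 0.66, adjusted p = 0.006 by edgeR). Irf8, a transcription factor of monocytes and dendritic cells, had 5.99, 0, 0 and 1.64 CPM and 78.3, 77.8, 37.5 and 28.5 CPM (log2 change 4.94 ± 1.03, adjusted p = 0.0275 by edgeR). No fresh library reached a stimulated one in either gene. Dntt (chromosome 19, 41029275 to 41059525), terminal transferase, active during antigen receptor rearrangement, had 0 counts in fresh cells and 388, 802, 70.9 and 29.6 CPM in stimulated ones, at least 717-fold higher. The 4 stimulated values of Dntt spanned 29.6 to 802 CPM, the WT libraries above the KO ones, and for the same reason as Prg2 the difference in response was not tested. Flt3, a cytokine receptor of early lymphoid and dendritic progenitors, had 7.98, 25.7, 21.4 and 23 CPM in fresh and 143, 250, 65.1 and 49.3 CPM in stimulated libraries (log2 change 2.44 ± 0.56, adjusted p = 0.0406 by edgeR). Satb1, a chromatin organiser of lymphoid cells, had 0 to 34.7 and 55.6 to 274 CPM (log2 change 3.14), and Vpreb1, a surrogate light chain protein and the 1 of 5 B cell markers that rose, 0 to 4.78 and 4.94 to 130 CPM (log2 change 5.48). Ly6c2 passed in all 15 alternative settings and Dntt in all but the fit by limma voom (adjusted p = 0.0509). Irf8 passed in 4 of the 8 fits with 1 library left out, Satb1 in 2 and Flt3 and Vpreb1 in 0, never without stimulated KO replicate 3 (adjusted p up to 0.273). Flt3, Satb1 and Vpreb1 did not pass by limma voom, nor Irf8, Satb1 and Vpreb1 over all 12 libraries. Summed over its list, the lymphoid-primed level was 192 to 309 CPM in fresh and 348 to 2090 CPM in stimulated cells. Fresh cells of 24-month animals lay below all stimulated libraries for 2 of the 3 monocyte genes and 1 of the 3 lymphoid ones, Dntt standing there at 0 to 33.9 CPM. They also lay below for 113 of the 191 genes higher in both genotypes and for 1743 of 10786 genes tested.

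Markers of other lineages gave 1 call, read against 1.77% higher and 1.84% lower over all genes. None of 17 megakaryocyte and platelet markers passed (median -0.01), and their sum was 1050 to 1510 CPM in fresh and 680 to 1430 CPM in stimulated libraries. Among 16 erythroid markers 1 fell, Car2, carbonic anhydrase 2, with 3750, 4070, 3960 and 5450 CPM in fresh and 1670, 1720, 2300 and 3310 CPM in stimulated libraries (log2 change -0.98 ± 0.16, adjusted p = 0.00868 by edgeR; it passed in all 15 alternative settings). The erythroid list had a median log2 change of 0.82, opposite in sign to Car2. Ank1 had 0 counts in fresh and 2.33 to 12.1 CPM in stimulated libraries, at least 15.9-fold higher (adjusted p = 0.0602 by edgeR). Hbb-bs, an adult beta globin, had 44.8 to 64.7 and 11 to 28.6 CPM (adjusted p = 0.104 by edgeR). None of 3 T and NK markers and none of 9 stromal and endothelial markers passed. Cd3e, Cd4, Cd8a and Cd8b1 of T cells, Cd79a and Ms4a1 of B cells, and Col3a1, Cdh5, Bglap and Acta2 of stroma and endothelium had 0 counts in all 8 libraries.

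**Figure D4:**
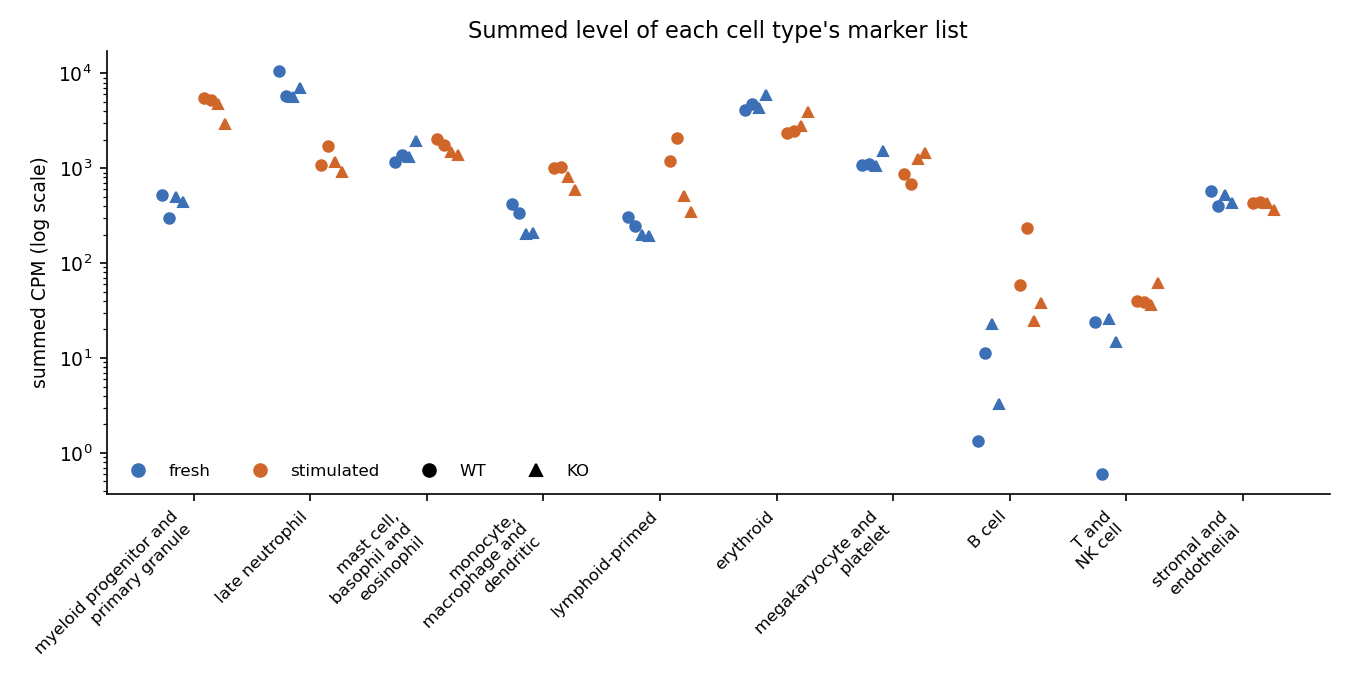
Summed CPM of each cell type's marker list in the 8 libraries, on a log axis, with circles for WT and triangles for KO. The primary granule sum was 299 to 517 CPM in fresh and 2950 to 5530 CPM in stimulated libraries, and the late neutrophil sum 5660 to 10600 and 920 to 1730 CPM; the megakaryocyte sums overlapped.

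Several regulators of the stem cell state fell. Of 26 HSC transcription factors tested, 5 fell (19.2%, against 1.84% of all genes) and 0 rose. The median log2 change of the list was -0.51, against 0.19 over all genes. This median was -0.97 in WT and -0.18 in KO, a difference that was not tested. Lmo2, a bridging factor of haematopoietic transcription complexes (chromosome 2, 103957903 to 103981878), had 1060, 1190, 1510 and 1720 CPM in fresh and 552, 529, 652 and 682 CPM in stimulated libraries (log2 change -1.16 ± 0.12, adjusted p = 0.000629 by edgeR). Hlf, a factor of the most primitive HSCs (chromosome 11, 90336535 to 90390917), had 1000, 959, 825 and 1030 CPM and 347, 467, 494 and 563 CPM (log2 change -1.04 ± 0.16, adjusted p = 0.00708 by edgeR). No stimulated library reached the lowest fresh one in either gene. Mycn, a member of the Myc family, had 164, 187, 301 and 156 CPM in fresh and 42.9, 30.6, 108 and 70.7 CPM in stimulated libraries (log2 change -1.80 ± 0.31, adjusted p = 0.0124 by edgeR). Meis1, a cofactor of Hox proteins, had 286, 283, 187 and 318 CPM and 118, 85.7, 152 and 160 CPM (log2 change -1.09 ± 0.25, adjusted p = 0.0407 by edgeR). Prdm16, a zinc finger factor needed by HSCs, had 118, 91.5, 178 and 58 CPM and 14.2, 14.5, 30.8 and 64.8 CPM (log2 change -2.07 ± 0.50, adjusted p = 0.0498 by edgeR). In KO the stimulated value of Prdm16 in replicate 4 lay above the fresh value of replicate 4, so this gene did not count as lower in both genotypes. Lmo2 and Hlf passed in all 15 alternative settings and Mycn in all but the fit without stimulated KO replicate 4 (adjusted p = 0.0519). Prdm16 passed in 2 of the 8 fits with 1 library left out and Meis1 in 1, never without stimulated KO replicate 3 (adjusted p up to 0.192). For 4 of the 5 genes all 4 fresh libraries of 24-month animals also lay above all 4 stimulated ones. This held for 117 of the 196 genes lower in both genotypes and for 992 of 10786 genes tested. For Hlf the 24-month libraries had 384 to 765 CPM against 347 to 563 CPM.

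Among 32 HSC surface and niche-interaction genes, 2 fell (6.25%, against 1.84% of all genes) and 0 rose (median -0.83). By the rule above, 0 were lower in both genotypes. The list median was -1.33 in WT and -0.28 in KO, a difference that was not tested. Angpt1, the ligand of the Tie2 receptor, had 904, 1090, 842 and 1320 CPM in fresh and 406, 429, 662 and 849 CPM in stimulated libraries (log2 change -0.88 ± 0.20, adjusted p = 0.0407 by edgeR), with stimulated KO replicate 4 above fresh KO replicate 3. Podxl, the sialomucin podocalyxin, had 39.9, 42.5, 250 and 30.7 CPM and 5.19, 5.85, 33.7 and 30.6 CPM (log2 change -2.48 ± 0.59, adjusted p = 0.0479 by edgeR), with stimulated KO replicate 3 above fresh KO replicate 4. Angpt1 passed in 2 of the 8 fits with 1 library left out and Podxl in 1, never without stimulated KO replicate 3 (adjusted p up to 0.191). Podxl did not pass by limma voom or with thinned counts. Procr, the receptor used to mark long-term HSCs, had 92.5 to 272 CPM in fresh and 54.1 to 117 CPM in stimulated libraries (log2 change -1.22 ± 0.37, adjusted p = 0.0853 by edgeR), and Sult1a1, a sulfotransferase of HSCs, 53.5 to 114 and 5.19 to 55.6 CPM (log2 change -2.29 ± 0.64, adjusted p = 0.0679 by edgeR). None of 28 quiescence and CDK inhibitor genes passed (median -0.11). Without overlap, 7 were higher in stimulated libraries and 2 lower. The smallest p belonged to Klf2, with 0 to 0.548 CPM in fresh and 6.69 to 17.6 CPM in stimulated libraries (log2 change 5.87 ± 1.42, adjusted p = 0.0501 by edgeR). Next was Klf4, with 0 counts in fresh and 4.22 to 10.4 CPM in stimulated libraries, at least 15.4-fold higher (adjusted p = 0.0597 by edgeR). Foxo3, a factor that keeps HSCs quiescent, had 162 to 250 CPM in fresh and 115 to 142 CPM in stimulated libraries without overlap (log2 change -0.76 ± 0.20, adjusted p = 0.0614 by edgeR), and Ndn, the growth suppressor necdin, 14.6 to 136 and 1.39 to 9.88 CPM (log2 change -3.30 ± 0.89, adjusted p = 0.0628 by edgeR).

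Several cell cycle genes rose, and none on the G1/S or G2/M list fell. Of 56 G1/S and DNA replication genes tested, 5 rose and 0 fell, with 43 of 56 log2 changes positive and a median of 0.65; of 63 G2/M and mitosis genes, 7 rose and 0 fell, with 56 of 63 positive and a median of 0.83. All genes tested were positive in 6270 of 10786 cases. Calls higher were 8.93% of the G1/S and 11.1% of the G2/M list, against 1.77% of all genes. Dnmt1, which copies DNA methylation at the replication fork (chromosome 9, 20907206 to 20959888), had 83.1, 82.5, 33.7 and 49.8 CPM in fresh and 308, 321, 281 and 257 CPM in stimulated libraries (log2 change 2.30 ± 0.23, adjusted p = 0.000629 by edgeR). Dut, dUTPase, had 398, 320, 378 and 276 CPM and 684, 805, 604 and 561 CPM (log2 change 0.94 ± 0.16, adjusted p = 0.0104 by edgeR). Neither gene overlapped between the groups. The licensing factor Cdt1 (log2 change 0.90), the single-strand binding subunit Rpa2 (log2 change 1.57) and the DNA ligase Lig1 (log2 change 0.66) were the other 3 of the first list. Birc5, survivin of the chromosomal passenger complex (chromosome 11, 117849237 to 117855743), had 226, 206, 190 and 84.9 CPM in fresh and 540, 542, 486 and 478 CPM in stimulated libraries (log2 change 1.57 ± 0.24, adjusted p = 0.00648 by edgeR). Plk1, a mitotic kinase, had 16.6, 34.7, 32.1 and 72.8 CPM and 233, 199, 190 and 165 CPM (log2 change 2.40 ± 0.40, adjusted p = 0.00952 by edgeR). Fresh KO replicate 4 was the lowest fresh library for Birc5 and the highest for Plk1. Ncapd2, a condensin subunit (log2 change 1.47), Top2a, topoisomerase II alpha (log2 change 0.79), Hmgb2, a chromatin protein (log2 change 1.29), Mad2l1, of the spindle checkpoint (log2 change 1.02), and Cenpw, of the kinetochore (log2 change 0.94), rose too.

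The 21 G1 genes split, with 2 higher and 2 lower (9.52% each, against 1.77% and 1.84% of all genes, median 0.17). Cdk6, the G1 kinase whose level sets how fast HSCs leave quiescence (chromosome 5, 3341004 to 3531008), had 1380, 813, 853 and 906 CPM in fresh and 2440, 2230, 2080 and 1860 CPM in stimulated libraries (log2 change 1.13 ± 0.16, adjusted p = 0.00454 by edgeR). Its partner gene Ccnd3, cyclin D3, rose from between 49.7 and 113 CPM to between 179 and 183 CPM (log2 change 1.18), whereas Ccnd2, cyclin D2, fell from between 1640 and 2840 CPM to between 1160 and 1370 CPM (log2 change -0.78). Ccnh, cyclin H of the CDK-activating kinase, fell from between 202 and 443 CPM to between 117 and 163 CPM (log2 change -1.25 ± 0.20, adjusted p = 0.00925 by edgeR). Dnmt1, Birc5 and Cdk6 passed in all 15 alternative settings, Dut and Ccnh in all but the fit without stimulated KO replicate 3 (adjusted p up to 0.0624) and Plk1 in all but the fit without fresh WT replicate 2 (adjusted p = 0.0506). Top2a passed in 6 of the 8 fits with 1 library left out, Ncapd2 and Hmgb2 in 5, Cdt1 and Mad2l1 in 3, Rpa2, Cenpw, Ccnd3 and Ccnd2 in 2 and Lig1 in 0, never without stimulated KO replicate 3 (adjusted p up to 0.208). Cdt1, Lig1, Mad2l1 and Cenpw did not pass by limma voom, nor Cdt1, Lig1, Ncapd2, Cenpw and Ccnd3 over all 12 libraries, nor Lig1 with RLE scaling. With any 1 library left out, 1 to 4 of the G1/S and 2 to 10 of the G2/M genes rose, the fewest without stimulated KO replicate 3. In the fresh cells of 24-month animals, all 4 libraries lay below the stimulated ones for all 5 G1/S genes and for 5 of the 7 G2/M genes, the exceptions being Mad2l1 (202 to 371 CPM) and Cenpw (113 to 209 CPM). These libraries lay below for 113 of the 191 genes higher in both genotypes and for 1743 of 10786 genes tested. For Cdk6 they had 1370 to 2980 CPM, which overlaps the stimulated range.

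The promoters of genes that rose were searched for 4 motifs that cell cycle, growth and cytokine signals are known to use, in windows from 250 bases before to 50 after the start, taken from RefSeq (build GRCm38.p6), on both strands. Promoters were given for 159 of the 191 higher genes, 149 of the 196 lower genes and 8339 of the 10786 tested. The E-box CACGTG, bound by Myc and Max, was in 10.7% of higher, 8.72% of lower and 10.7% of all tested promoters. CCAAT, the box of NF-Y, was in 43.4%, 32.2% and 38.8%, an E2F site (TTTCCCGC or TTTGGCGC) in 3.14%, 2.01% and 3.3%, and the cyclic AMP element TGACGTCA in 3.14%, 4.03% and 3.36%. The shares among higher genes lay near those of all tested genes, furthest for CCAAT, and a match is a description, not a site in use. The 250 bases before the start are printed for 4 higher genes that hold a motif and are among those with the smallest p, to show where the matches lie. They run 5′ to 3′ on the gene's strand, and capitals mark only the motif named for that gene. RefSeq gives several starts for some genes, and those used for Cdk6 and Ncapd2 lie inside the annotated spans. Cdk6 (chr5:3343643-3343892, plus strand) held 1 E-box, Elane (chr10:79886062-79886311, plus strand) 1 CCAAT box and Dnmt1 (chr9:20959889-20960138, minus strand) 4, counting ATTGG as CCAAT on the other strand, and Ncapd2 (chr6:125191587-125191836, minus strand) 1 E2F site next to the start.
Cdk6: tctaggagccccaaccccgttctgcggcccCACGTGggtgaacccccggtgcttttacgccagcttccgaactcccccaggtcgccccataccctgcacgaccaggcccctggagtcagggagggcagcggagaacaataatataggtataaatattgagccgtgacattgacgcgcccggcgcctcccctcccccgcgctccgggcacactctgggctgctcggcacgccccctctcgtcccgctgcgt
Elane: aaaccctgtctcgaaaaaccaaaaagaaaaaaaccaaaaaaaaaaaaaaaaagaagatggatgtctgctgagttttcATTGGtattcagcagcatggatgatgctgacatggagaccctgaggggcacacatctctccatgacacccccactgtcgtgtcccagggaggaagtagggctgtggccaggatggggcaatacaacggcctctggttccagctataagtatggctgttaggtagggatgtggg
Dnmt1: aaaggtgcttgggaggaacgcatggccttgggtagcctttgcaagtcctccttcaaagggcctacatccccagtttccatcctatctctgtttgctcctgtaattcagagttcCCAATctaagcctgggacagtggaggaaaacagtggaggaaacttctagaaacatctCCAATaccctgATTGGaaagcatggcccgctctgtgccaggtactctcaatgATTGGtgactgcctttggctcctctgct
Ncapd2: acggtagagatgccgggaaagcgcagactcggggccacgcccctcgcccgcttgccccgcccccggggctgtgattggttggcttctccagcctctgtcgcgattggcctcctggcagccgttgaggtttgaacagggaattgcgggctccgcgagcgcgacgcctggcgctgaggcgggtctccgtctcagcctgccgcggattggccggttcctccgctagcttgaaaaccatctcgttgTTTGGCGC

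As a sum, transcripts of ribosomal proteins made up a smaller share of the stimulated libraries. The 83 cytosolic ribosomal protein genes summed to 172000 to 195000 CPM in fresh and 137000 to 144000 CPM in stimulated libraries, without overlap. Of the 83, 20 fell (24.1%, against 1.84% of all genes) and 5 rose (6.02%, against 1.77%), all in both genotypes. Among the 83 log2 changes 28 were positive, with a median of -0.18. Rps7 (chromosome 12, 28630847 to 28635953) had 4460, 4600, 4770 and 4850 CPM in fresh and 1260, 1050, 1320 and 1270 CPM in stimulated libraries (log2 change -1.93 ± 0.10, adjusted p = 8.66e-06 by edgeR). The 4 fresh values lay within 4460 to 4850 CPM and the 4 stimulated ones within 1050 to 1320 CPM, far apart. Rpl11, whose product also binds Mdm2, had 3380, 3350, 3500 and 3390 CPM and 1560, 1400, 1340 and 1330 CPM (log2 change -1.27 ± 0.10, adjusted p = 9.10e-05 by edgeR). Rpl13a had 7430, 7420, 6910 and 5750 CPM and 3020, 2870, 2830 and 3390 CPM (log2 change -1.18 ± 0.11, adjusted p = 0.000447 by edgeR). Rpl4 had 5710, 7670, 8780 and 9980 CPM and 3730, 3090, 3720 and 3910 CPM (log2 change -1.13 ± 0.13, adjusted p = 0.00108 by edgeR), with the fresh KO libraries the highest. Rpl23, at 8720 to 10700 CPM in fresh cells, fell to between 4890 and 6250 CPM (log2 change -0.78). The 5 that rose were Rplp2 (464 to 755 CPM in fresh and 861 to 1500 CPM in stimulated libraries, log2 change 0.94), Rpl28 (log2 change 1.09), Rpl41 (log2 change 1.31), Rps16 (log2 change 0.73) and Rpl35 (log2 change 0.71). Of the 20 that fell, Rps7, Rpl11, Rps3a1, Rpl13a, Rpl4, Rpl23a, Rps19, Rpl23, Rpl7, Rplp1, Rpl39, Rpl21 and Rpl37 passed in all 15 alternative settings. Rpl26 passed in 6 of the 8 fits with 1 library left out, Rpl22 in 5, Rpl36a in 4, Rpl24 and Rpl5 in 2 and Rpl12 and Rpl22l1 in 1, never without stimulated KO replicate 3 (adjusted p up to 0.19). Rpl28 passed in 4 of the 8 fits with 1 library left out, Rpl41 in 3, Rps16 and Rpl35 in 2 and Rplp2 in 1, never without stimulated KO replicate 3 (adjusted p up to 0.178). Rplp2 and Rpl35 did not pass by limma voom, nor Rpl35 with RLE scaling or with thinned counts. Without stimulated KO replicate 3 the list had 13 members lower and 0 higher. Fresh cells of 24-month animals summed to 187000 to 264000 CPM, and 18 of the 20 genes that fell were above the stimulated range in all 4 of those libraries. So were 117 of the 196 genes lower in both genotypes and 992 of 10786 genes tested. For none of the 5 genes that rose did all 4 of those libraries lie below the stimulated ones; Rplp2 had 1600 to 3450 CPM there. Ribosomal protein genes have many near-identical pseudogenes, so the split of reads between copies is uncertain.

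Among translation factors 6 of 48 were lower (12.5%, against 1.84% of all genes) and 1 higher (2.08%, against 1.77%), with a median of -0.14. Eef1a1, the elongation factor that brings tRNA to the ribosome (chromosome 9, 78478453 to 78481724), had 10600, 11800, 13200 and 11200 CPM in fresh and 4590, 3980, 4690 and 5020 CPM in stimulated libraries (log2 change -1.36 ± 0.10, adjusted p = 5.40e-05 by edgeR). Eif3k, a subunit of initiation factor 3, fell from between 533 and 921 CPM to between 293 and 323 CPM (log2 change -1.12 ± 0.17, adjusted p = 0.006 by edgeR). Also lower were Eef1b2 (log2 change -0.54), Eif3m (log2 change -0.81), Eif3e (log2 change -0.66) and Pdcd4, an inhibitor of initiation (log2 change -0.70). Eif4a3, a helicase of the exon junction complex, rose from between 47.2 and 100 CPM to between 181 and 207 CPM (log2 change 1.61 ± 0.25, adjusted p = 0.00774 by edgeR). Eef1a1, Eif3k and Eif4a3 passed in all 15 alternative settings. Eef1b2 passed in 4 of the 8 fits with 1 library left out, Eif3m in 2 and Eif3e and Pdcd4 in 1, never without stimulated KO replicate 3 (adjusted p up to 0.208).

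**Figure D5:**
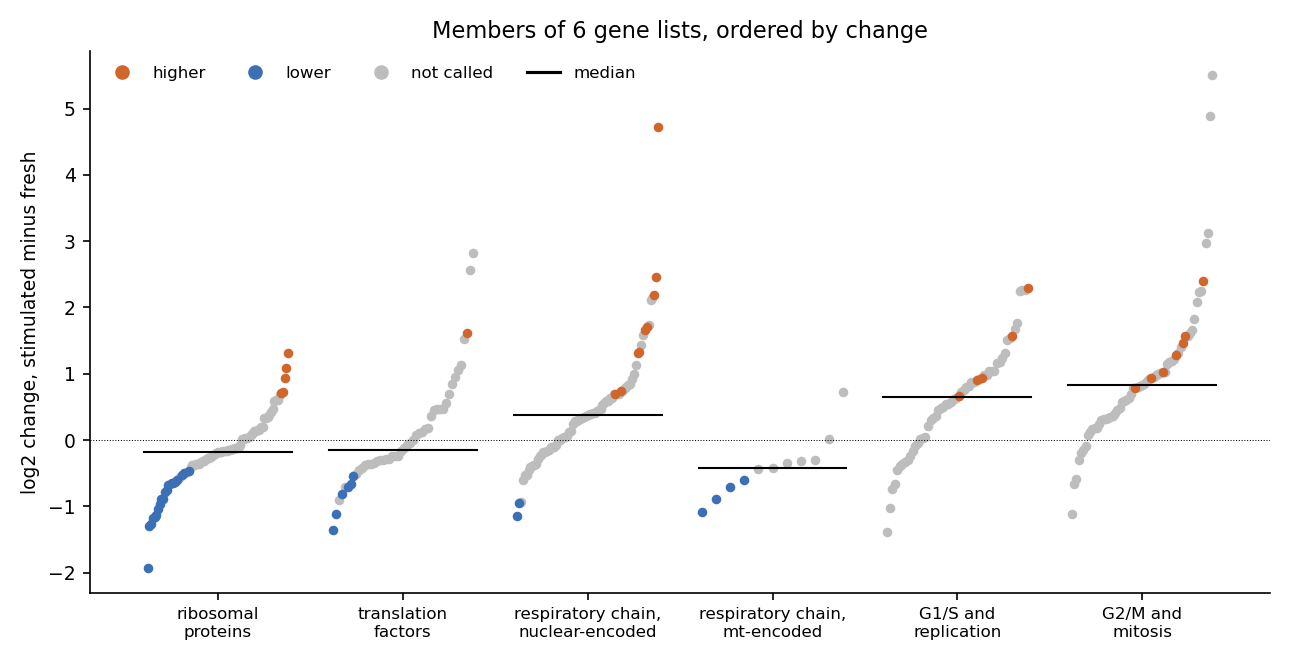
Log2 change of every tested member of 6 gene lists, ordered within each list, with called members in colour and a line at the median. Ribosomal proteins and mitochondrially encoded genes have medians of -0.18 and -0.41, nuclear-encoded respiratory chain genes 0.39, and the cell cycle lists 0.65 and 0.83.

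Calls among respiratory chain genes were mostly higher for subunits of the nuclear genome and lower for those of the mitochondrial genome, a difference that was not itself tested. Of 77 nuclear-encoded subunits tested, 9 rose (11.7%) and 2 fell (2.6%), with a median of 0.39. Of 11 mitochondrially encoded genes 4 fell (36.4%) and 0 rose (median -0.41). Over all genes the shares were 1.77% higher and 1.84% lower. Ndufa1, of complex I (chromosome X, 37187588 to 37191238), had 174, 132, 151 and 167 CPM in fresh and 315, 516, 386 and 344 CPM in stimulated libraries (log2 change 1.32 ± 0.20, adjusted p = 0.00635 by edgeR). Uqcr11, of complex III, had 12.6, 43.1, 48.7 and 14.8 CPM and 150, 178, 144 and 185 CPM (log2 change 2.46 ± 0.45, adjusted p = 0.0152 by edgeR). Neither overlapped between the groups. Ndufs6 and Ndufb2 of complex I, Cox8a of complex IV and Atp5l of ATP synthase rose, with log2 changes of 1.66, 1.33, 1.70 and 4.72, with Atp5l at 0.548 to 1.33 CPM in fresh and 22.2 to 33.7 CPM in stimulated libraries. Within complex II the subunit genes differed in direction, Sdhd higher (7.98 to 27.8 CPM in fresh and 58.9 to 78.2 CPM in stimulated libraries) and Sdhc lower (264 to 423 CPM in fresh and 129 to 172 CPM in stimulated libraries). Ndufc1 (log2 change 0.74) and Cox7c (log2 change 0.69) had smaller rises, and Ndufb10 fell (log2 change -0.95). Ndufa1 passed in all 15 alternative settings. Uqcr11 and Sdhc passed in 6 of the 8 fits with 1 library left out, Ndufs6 in 5, Atp5l in 4, Ndufb2, Cox8a, Sdhd, Ndufc1 and Ndufb10 in 2 and Cox7c in 1, never without stimulated KO replicate 3 (adjusted p up to 0.218). Sdhd, Ndufc1 and Cox7c did not pass by limma voom or with thinned counts, nor Sdhd, Ndufc1 and Ndufb10 over all 12 libraries, nor Ndufc1 and Cox7c with RLE scaling, nor Cox7c and Ndufb10 with no filter. With any 1 library left out, 1 to 11 of the nuclear genes rose, the fewest without stimulated KO replicate 3. For 1 of the 9 genes that rose, all 4 fresh libraries of 24-month animals lay below the stimulated ones. That was the case for 113 of the 191 genes higher in both genotypes and for 1743 of 10786 genes tested. For Cox7c the 24-month libraries lay above the stimulated ones, at 498 to 781 CPM, and Atp5l had 3.74, 50.4, 94.2 and 95.3 CPM there. The 77 nuclear-encoded genes summed to 14900 to 17500 CPM in fresh and 17800 to 19400 CPM in stimulated libraries. In the fresh cells of 24-month animals they summed to 18700 to 23300 CPM.

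From the mitochondrial genome, ND2 of complex I had 7520, 6140, 6820 and 5430 CPM in fresh and 3080, 3150, 2940 and 3000 CPM in stimulated libraries (log2 change -1.09 ± 0.11, adjusted p = 0.000544 by edgeR). CYTB of complex III had 9080, 8620, 6770 and 8150 CPM and 4290, 4270, 4530 and 4520 CPM (log2 change -0.89 ± 0.10, adjusted p = 0.00136 by edgeR). The stimulated values of both were close to each other across all 4 libraries. ND5 fell from between 1290 and 2140 CPM to between 945 and 1050 CPM (log2 change -0.71) and ND4 from between 12000 and 16800 CPM to between 8140 and 9470 CPM (log2 change -0.61). ND2 and CYTB passed in all 15 alternative settings. ND5 and ND4 passed in 4 of the 8 fits with 1 library left out, never without stimulated KO replicate 3 (adjusted p up to 0.106). The genes of this genome summed to 40600 to 46200 CPM in fresh and 28000 to 30700 CPM in stimulated libraries, and to 28900 to 41800 CPM in the fresh cells of 24-month animals. All 4 genes lay above the stimulated range in all 4 of those libraries, as did 117 of the 196 genes lower in both genotypes and 992 of 10786 tested.

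Calls in the metabolic lists are read against 1.77% higher and 1.84% lower over all genes. The shares higher were 9.09% for glycolysis, 5.41% for antioxidant and 3.7% for nucleotide synthesis genes. Glycolysis genes rose in 3 of 33 cases and fell in 0 (median 0.41): Pkm, pyruvate kinase (58.6 to 77.7 CPM in fresh, 117 to 183 CPM in stimulated libraries), Pfkfb3, which makes the activator of phosphofructokinase (0 to 6.57 and 37.9 to 65.1 CPM), and Hk3, a hexokinase of myeloid cells (0 to 2.99 and 9.85 to 45 CPM). Cholesterol synthesis and uptake genes fell in 3 of 34 cases (8.82%) and rose in 0 (median -0.46). These were the sterol carrier gene Stard4 (log2 change -1.05), the sterol response factor gene Srebf2 (275 to 347 CPM in fresh and 185 to 226 CPM in stimulated libraries, log2 change -0.67) and the desaturase gene Scd2 (log2 change -0.97). Gpx1, glutathione peroxidase 1, rose from between 330 and 499 CPM to between 753 and 913 CPM (log2 change 1.04 ± 0.15, adjusted p = 0.00543 by edgeR) and Gsr, glutathione reductase, from between 9.09 and 12.6 CPM to between 52.3 and 71.2 CPM (log2 change 2.51 ± 0.46, adjusted p = 0.0152 by edgeR), 2 of 37 antioxidant genes. Of 27 nucleotide synthesis enzymes 1 rose (3.7%), Cad, which starts pyrimidine synthesis (30.1 to 39.2 CPM in fresh and 98.2 to 109 CPM in stimulated libraries). Gpx1 passed in all 15 alternative settings. Gsr and Cad passed in 4 of the 8 fits with 1 library left out, Pfkfb3 and Stard4 in 3 and Pkm, Hk3, Srebf2 and Scd2 in 1, never without stimulated KO replicate 3 (adjusted p up to 0.241). Pkm, Hk3, Srebf2, Gsr and Cad did not pass by limma voom or over all 12 libraries, nor Pkm with RLE scaling, nor Srebf2 with no filter, nor Scd2 with thinned counts. None of 19 NAD metabolism genes passed (median -0.05).

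Few genes of ribosome assembly, splicing and protein turnover passed, in both directions. Of 69 Myc and ribosome biogenesis genes, 3 rose and 2 fell, 4.35% and 2.9% against 1.77% and 1.84% of all genes, and the median of 0.19 equals that of all genes, so the list is not set apart by these counts. Dkc1, dyskerin of the pseudouridine-forming particles (chromosome X, 75095854 to 75109776), had 444, 419, 299 and 350 CPM in fresh and 966, 877, 758 and 574 CPM in stimulated libraries (log2 change 1.07 ± 0.14, adjusted p = 0.00311 by edgeR), and its partner gene Nop10 172, 206, 104 and 110 CPM and 369, 364, 389 and 301 CPM (log2 change 1.32 ± 0.20, adjusted p = 0.0066 by edgeR). Nop58, of the methylating particles, fell from between 1240 and 1430 CPM to between 678 and 815 CPM (log2 change -0.84 ± 0.12, adjusted p = 0.00472 by edgeR). Mybbp1a rose (log2 change 1.04) and Max, the partner of Myc, fell from between 309 and 481 CPM to between 177 and 208 CPM (log2 change -0.98). Of 60 splicing factors 5 rose, among them Snrpf, an Sm protein (69.2 to 168 CPM in fresh and 400 to 497 CPM in stimulated libraries, log2 change 1.93 ± 0.22, adjusted p = 0.00129 by edgeR), and Snrnp40 of the U5 particle (65.3 to 106 CPM in fresh and 253 to 278 CPM in stimulated libraries, log2 change 1.67 ± 0.19, adjusted p = 0.00125 by edgeR). The others were Hnrnpdl, Ptbp1 and Snrpd2, and Hnrnpa0 fell from between 3280 and 5050 CPM to between 1980 and 2110 CPM (log2 change -0.94). Of 39 proteasome genes, 5.13% were higher and 2.56% lower: the core subunits Psma5 (log2 change 1.33) and Psmb5 (log2 change 1.33) rose and Psma1 fell (log2 change -0.80). Dkc1, Nop10, Nop58, Snrnp40, Snrpf, Hnrnpa0, Psma5 and Psma1 passed in all 15 alternative settings. Mybbp1a and Psmb5 passed in 5 of the 8 fits with 1 library left out, Max, Hnrnpdl and Ptbp1 in 4 and Snrpd2 in 2, never without stimulated KO replicate 3 (adjusted p up to 0.167). Hnrnpdl and Snrpd2 did not pass by limma voom, nor Snrpd2 and Psmb5 over all 12 libraries.

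Lists of chaperones, adhesion, lysosomes and the like gave 1 to 3 calls each, read against 1.77% higher and 1.84% lower over all genes. Hspa4, a cytosolic chaperone of the Hsp110 family, fell from between 733 and 1190 CPM to between 323 and 411 CPM (log2 change -1.36 ± 0.16, adjusted p = 0.00173 by edgeR), and with Cct4, of the chaperonin that folds actin and tubulin (log2 change -0.84), it was 1 of 2 lower among 36 chaperones, where the cochaperone gene Hspbp1 rose (log2 change 2.55). In the fresh cells of 24-month animals Hspa4 stood at 2700 to 3750 CPM, above all 8 young libraries. Coro1a, coronin 1A of the leukocyte actin skeleton, rose from between 73.8 and 104 CPM to between 204 and 233 CPM (log2 change 1.43 ± 0.21, adjusted p = 0.00539 by edgeR) and Rac1, a GTPase of adhesion and migration, fell (log2 change -0.95), 2 of 35 integrin and homing genes. Of 44 autophagy and lysosome genes 2 rose, Npc2, which carries cholesterol out of lysosomes (81.8 to 181 CPM in fresh and 231 to 316 CPM in stimulated libraries), and Grn, progranulin (11.5 to 74.5 CPM in fresh and 148 to 178 CPM in stimulated libraries). Single calls were Farsa, of phenylalanyl-tRNA synthetase, higher among 22 synthetases (log2 change 1.86), Pdia6, an ER disulfide isomerase, higher among 27 ER genes (log2 change 0.92), Ccng1, the p53 target cyclin G1, lower among 26 BCL2 family and p53 genes (log2 change -1.26), Slc39a1, a zinc importer, lower among 12 (log2 change -1.22), and Snhg8, a snoRNA host, higher among 17 long non-coding RNAs (log2 change 1.05). Hspa4 and Coro1a passed in all 15 alternative settings and Npc2 in all but the fit without stimulated KO replicate 3 (adjusted p = 0.0726). Farsa passed in 6 of the 8 fits with 1 library left out, Grn in 4, Pdia6 and Snhg8 in 3, Slc39a1 in 2 and Cct4, Hspbp1, Ccng1 and Rac1 in 1, never without stimulated KO replicate 3 (adjusted p up to 0.205). Hspbp1 did not pass by limma voom, nor Grn and Slc39a1 over all 12 libraries. H2afy and Satb1 were the 2 of 42 chromatin regulators that rose, and Ly6e and Flt3 the 2 of 8 surface markers of HSCs and early progenitors that rose.

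Some of the largest rises in CPM were abundant nuclear genes. H2afy, the histone variant macroH2A1, had 662, 480, 805 and 533 CPM in fresh and 2880, 3740, 1970 and 1380 CPM in stimulated libraries (log2 change 1.93 ± 0.27, adjusted p = 0.00472 by edgeR). Ptma, prothymosin alpha, a chromatin-associated protein of growing cells, had 738, 775, 671 and 630 CPM and 1720, 1650, 1480 and 1420 CPM (log2 change 1.16 ± 0.11, adjusted p = 0.000343 by edgeR). The groups did not overlap in either gene. Chchd2, a mitochondrial protein, rose from between 1390 and 1530 CPM to between 2150 and 2790 CPM (log2 change 0.66 ± 0.11, adjusted p = 0.00902 by edgeR). H2afy and Ptma passed in all 15 alternative settings and Chchd2 in all but the fit without stimulated KO replicate 3 (adjusted p = 0.055). In the fresh cells of 24-month animals Ptma stood at 1920 to 2830 CPM, above the stimulated range, and H2afy at 383 to 663 CPM, overlapping the fresh range of young cells.

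Genes known to respond directly to cytokines showed few calls at 24 hours, read against 1.77% higher and 1.84% lower over all genes. Of 17 immediate early genes 1 rose, Fos, which had 0 counts in all fresh libraries and 13.2, 31, 34.6 and 62.6 CPM in stimulated ones, at least 80.6-fold higher, while 14 of 17 log2 changes were positive (median 1.53). Junb had 9.31 to 95.8 CPM in fresh and 128 to 215 CPM in stimulated libraries (log2 change 1.53 ± 0.55, adjusted p = 0.145 by edgeR) and Jun 0 to 15.3 and 40.3 to 76.4 CPM (log2 change 2.61 ± 0.94, adjusted p = 0.147 by edgeR), neither with overlap. None of 21 STAT5 and SOCS genes passed (median 0.51), with Pim1, a kinase induced by STAT5, at 64.5 to 206 and 44.3 to 61.3 CPM (log2 change -1.34 ± 0.35, adjusted p = 0.0613 by edgeR) and Stat3 at 29.9 to 93.9 and 103 to 199 CPM (log2 change 1.40 ± 0.39, adjusted p = 0.0674 by edgeR). None of 16 NF-kB genes and none of 10 MAP kinase feedback genes passed; Nfkbia, the inhibitor that NF-kB itself induces, had 424 to 557 and 580 to 828 CPM (log2 change 0.52 ± 0.15, adjusted p = 0.084 by edgeR). Over all genes, 2141 of 10786 had an unadjusted p under 0.05. Of 36 interferon response genes 2 rose and 3 fell (median -0.25): the immunoproteasome subunit gene Psmb8 (log2 change 1.10) and Ly6e (log2 change 1.10) were higher, and the GTPase gene Iigp1 (120 to 405 CPM in fresh and 48.8 to 133 CPM in stimulated libraries, log2 change -1.43), Rtp4 (log2 change -1.23) and the RNA sensor gene Ifih1 (log2 change -1.47) were lower. In antigen presentation, 3 of 20 genes rose and 0 fell (median 0.67). Tap2, the peptide transporter (chromosome 17, 34204479 to 34216321), had 23.9, 51.4, 51.9 and 59.7 CPM in fresh and 224, 322, 234 and 228 CPM in stimulated libraries (log2 change 2.45 ± 0.30, adjusted p = 0.00177 by edgeR), and Tapbp, tapasin (log2 change 1.60), and H2-T22, a non-classical class I gene (log2 change 1.44), were the others. Of 22 genes of the integrated stress response and amino acid supply, Atf4, its central factor (133 to 203 CPM in fresh and 317 to 395 CPM in stimulated libraries, log2 change 1.12 ± 0.19, adjusted p = 0.0105 by edgeR), and Phgdh, of serine synthesis (log2 change 1.67), rose and Atf5 fell (log2 change -1.30), with a median of 1.11. Tap2 passed in all 15 alternative settings and Atf4 in all but the fit without stimulated KO replicate 3 (adjusted p = 0.0693). Iigp1 passed in 6 of the 8 fits with 1 library left out, Fos in 5, Psmb8 in 4, Ly6e and H2-T22 in 3, Tapbp and Phgdh in 2, Rtp4 and Ifih1 in 1 and Atf5 in 0, never without stimulated KO replicate 3 (adjusted p up to 0.23). H2-T22, Tapbp and Phgdh did not pass by limma voom, nor Fos, Rtp4, Ifih1, H2-T22, Tapbp, Phgdh and Atf5 over all 12 libraries, nor Tapbp with RLE scaling, nor Ifih1, H2-T22 and Atf5 with no filter, nor Ifih1, H2-T22, Tapbp and Atf5 with thinned counts.

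Among the 12 largest rises by fitted log2 change, the 7 outside these lists were of genes with 0 counts in every fresh library. Atp8b4, a phospholipid flippase of blood cells (chromosome 2, 126320973 to 126500669), had 146, 103, 113 and 66.2 CPM in stimulated libraries, at least 246-fold higher. Prom1, prominin 1, a membrane glycoprotein used as a stem cell marker, had 23.2, 29.6, 27.3 and 22.9 CPM, at least 59.2-fold higher, with the 4 values close together. Dtx4, a ubiquitin ligase of Notch signalling, had 22.7 to 46.5 CPM (at least 81.2-fold higher), Uxt, a prefoldin-like protein, 29.6 to 48.2 CPM (at least 85.6-fold higher), Mgam, a maltase, 26.7 to 33.7 CPM (at least 70.2-fold higher), Emilin2, a matrix glycoprotein, 16.5 to 28.4 CPM (at least 54.8-fold higher) and Ear6, an eosinophil-associated ribonuclease with near-identical copies, 16 to 62.3 CPM (at least 81-fold higher). Atp8b4 passed in all 15 alternative settings and Uxt in all but the fit without stimulated KO replicate 3 (adjusted p = 0.0713). Ear6 passed in 5 of the 8 fits with 1 library left out and Dtx4, Mgam, Prom1 and Emilin2 in 4, never without stimulated KO replicate 3 (adjusted p up to 0.138). Mgam and Prom1 did not pass over all 12 libraries. In the fresh cells of 24-month animals, Uxt was counted in all 4 libraries at 12.9 to 46.5 CPM and Emilin2 at 1.17 to 49.7 CPM. Their 0 in young fresh cells was thus not shared by those libraries. Mgam, Atp8b4 and Prom1 stood at 64.3, 27.5 and 12.7 CPM in KO replicate 4 of the 24-month animals and at 0 CPM in the rest. For Mgam that library lay above every stimulated one. Dtx4 and Ear6 had at most 0.604 and 0.416 CPM in the 24-month libraries.

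Among the largest falls not yet described was Malat1, a nuclear long non-coding RNA and the 1 of 17 on its list that fell (chromosome 19, 5795690 to 5802672), which had 9090, 6070, 4280 and 6320 CPM in fresh and 1130, 930, 1090 and 1090 CPM in stimulated libraries (log2 change -2.58 ± 0.19, adjusted p = 7.44e-05 by edgeR). Chtf8, of the clamp loader that acts in sister chromatid cohesion (chromosome 8, 106883863 to 106893593), had 1250, 816, 904 and 897 CPM and 177, 136, 163 and 143 CPM (log2 change -2.64 ± 0.18, adjusted p = 4.51e-05 by edgeR). In the fresh cells of 24-month animals, Malat1 stood at 341 to 591 CPM, below every stimulated library, and Chtf8 at 113 to 228 CPM, across the stimulated range, so young fresh cells stood apart from both other sets. Rgag4, a gene derived from a retrotransposon, fell from between 96.8 and 373 CPM to between 19 and 30.3 CPM (log2 change -3.28 ± 0.40, adjusted p = 0.00168 by edgeR) and had 203 to 305 CPM in the older animals. Cul9, a cullin that binds p53, fell from between 67.4 and 168 CPM to between 9.01 and 18.9 CPM (log2 change -2.87 ± 0.41, adjusted p = 0.00539 by edgeR). Cd55, decay-accelerating factor of the complement system, fell from between 18.5 and 95.8 CPM to between 4.85 and 13.4 CPM (log2 change -2.59), Adam22, a membrane protein without protease activity, from between 30 and 111 CPM to between 6.58 and 17.2 CPM (log2 change -2.78), and Slain1, which promotes microtubule growth, from between 31.7 and 78.6 CPM to between 5.89 and 13.4 CPM (log2 change -2.42). Rgag4, Cul9, Chtf8 and Malat1 passed in all 15 alternative settings. Adam22, Cd55 and Slain1 passed in 1 of the 8 fits with 1 library left out, never without stimulated KO replicate 3 (adjusted p up to 0.211). Cd55 and Slain1 did not pass over all 12 libraries, nor Slain1 with no filter or with thinned counts.

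The 24-month fresh libraries were set against the same 4 stimulated libraries that had chosen the calls. Genes chosen for high or low stimulated values lean to the same side here, so this is no independent check. Of the 191 genes that rose, all 4 of those libraries lay below all 4 stimulated ones for 113 and above them for 11; over all genes tested the numbers were 1743 and 992 of 10786. Of the 196 that fell, they lay above for 117 and below for 6. Age and library set differ between these fresh cells and the stimulated ones, and their parts cannot be told apart.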

How the data were processed

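RNA came from sorted mouse HSCs, and 3′ tag libraries were made with a QuantSeq FWD kit, per the labels' protocols. The deposited values are raw gene counts. The authors used HISAT2 2.2.1, HTSeq 0.9.1 and build mm10, per the submitters' processing notes, which also name DESeq2 1.34.0. The annotation, strand setting and read filters are not given in the sources used here.

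The 8 young libraries were fitted in R 4.3.3 with edgeR 4.0.16 (quasi-likelihood test, TMM, filterByExpr with a minimum count of 10 and total of 15, genotype plus treatment), leaving 10786 of 35976 symbols with 5 residual and 5.53 prior degrees of freedom. Genes outside the filter held at most 0.415% of a library's counts. WT, KO and the difference of their responses came from a fit of the 4 groups. Adjusted p-values (Benjamini-Hochberg, threshold 0.05) run over all genes tested. Where a group had 0 counts, folds are bounded with 3 counts over its libraries. Positions are those of RefSeq, to which 32501 symbols matched.

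The 46 gene lists and the tests were chosen with earlier results of these data known. They hold 1404 genes, 1266 of them tested. Names were taken from this rule: with a mean of at least 5 CPM and no overlap between the 4 and 4 libraries, the 12 largest rises and falls by log2 change and the 10 largest by CPM, plus the 4 members with the smallest p in each list. Called list members were added after their values were seen. Some members without a call that the rule chose are not named in the text. Predicted gene models, 5 of the higher and 7 of the lower calls, are not named. The 15 alternatives were RLE scaling, no filter, DESeq2 1.42.0, a replicate block, limma 3.58.1 voom with a weight per treatment, all 12 libraries, counts thinned to 1600155, and each of the 8 libraries left out. The fit was run on data simulated with separate dispersions for fresh and stimulated libraries. The outcome of that run is not given here. A result on 1 gene is not reported here.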

Additional observations from a re-analysis of the deposited data

How the results depend on the processing

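Of the 191 higher and 196 lower genes, 36 and 59 were called in each of the 15 alternative settings. Of the 162 called genes among those named, 57 passed in all 15. None of these called genes reversed, but the both-genotype rule had left a direction little room to change. Some list medians near 0 did change sign over the settings. Among them, the quiescence and CDK inhibitor median ran from -0.18 to 0.21. The NAD metabolism median ran from -0.13 to 0.68 and the megakaryocyte and platelet median from -0.09 to 0.51. With DESeq2 the counts were 659 higher and 616 lower over both genotypes, 641 and 527 by the both-genotype rule, 390 and 327 in WT, 569 and 340 in KO, and 182 genes with a response that differed between genotypes. The WT contrast had 26 higher with RLE scaling, 74 with no filter and 25 with all 12 libraries. The KO contrast had 100 higher and 61 lower with no filter. By limma voom with a weight per treatment WT had 14 and 126 and KO 11 and 131. With 1 library left out, the counts ran from 40 to 239 higher and from 62 to 217 lower, also by the both-genotype rule, from 4 to 254 and 3 to 167 in WT, from 1 to 555 and 0 to 159 in KO, and stayed at 0 for the difference. Leaving 1 library in a group assumes that it varies like the others. Deviations from the group means of same-numbered fresh and stimulated samples correlated at 0.00362 in WT and 0.0119 in KO. With 2 libraries a group, both numbers of a genotype give the same value, and a swap of numbers gives its negative. Whether same-numbered samples belong together cannot be told from these correlations. For WT replicate 1, Xist was at 0 CPM in the fresh and 635 CPM in the stimulated library. Y-linked transcripts were at 212 and 0.346 CPM, so these libraries were not a matched pair in sex-linked transcripts. With the replicate block the counts were 222 and 177, and 214 and 171 by the both-genotype rule. They were 114 and 103 in WT, 140 and 95 in KO, and 0 for the difference. Of the 191 and 196 genes, 153 and 164 were called again with the block. Named genes that did not pass with it were Cdt1, Cenpw, Lig1, Atp5l, Sdhd, Cox7c, Ndufb10, Podxl, Cd55, Slain1 and Ccng1. Nor did Slc39a1, Eif3m, Pkm, Hk3, Srebf2, Ms4a2, H2-T22, Tapbp, Ifih1 and Atf5. The other settings stayed within 1.5 times. For each of these shifts the cause was not tested. Fresh libraries had fewer counts and genes, and a rise from 0 counts there can be given only as a lower bound.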

Other observations

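Further genes of granulocytes and mononuclear phagocytes outside the lists, chosen after their values were seen, were also higher in both genotypes. Ear1 and Ear2, ribonucleases of eosinophils with near-identical copies, had 0 counts in all 4 fresh libraries and 44.7, 35.5, 7.56 and 4.93 CPM, and 19.7, 25.5, 5.81 and 3.87 CPM, in stimulated WT replicates 1 and 2 and KO replicates 3 and 4, at least 51.6-fold and 30.7-fold higher. Siglecf, a sialic acid receptor of eosinophils, had 0 counts in fresh and 23.9, 15.1, 7.27 and 8.45 CPM in stimulated libraries, at least 30.7-fold higher. For these 3 genes both WT libraries lay above both KO ones after stimulation. Cd244, a receptor of cytotoxic and progenitor cells, had 0 counts in fresh and 12.5 to 26.5 CPM in stimulated libraries, at least 43.6-fold higher. Ccl9, a chemokine of myeloid cells, had 2 counts over the 4 fresh libraries and 28.9 to 63 CPM in stimulated ones, a ratio of 183 with a counting interval from 50.4 to 1510. Fcgr3, a low-affinity IgG receptor, had 8.65, 0.598, 0 and 0 CPM in fresh and 113, 84.7, 60.2 and 55.6 CPM in stimulated libraries (log2 change 5.65 ± 1.01, adjusted p = 0.0138 by edgeR). Siglecf was at 0 in all 4 fresh libraries of 24-month animals, while Ear1 reached 15.9 CPM there. Of the 15 alternative settings, Ccl9 was called again in 15, Fcgr3 in 14, Ear1 in 9, Cd244 in 8, and Ear2 and Siglecf in 5 each.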
